A study of Mus musculus with 96 samples.

Results

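The comparison described here set mouse intestinal organoids carrying the Apc-min mutation against Apc wild-type control organoids, both with intact Bmal1. It rests on 21 Apc-min and 22 control libraries, which are 43 of the 88 libraries in the deposited expression tables. Libraries were chosen by their genotype label and compared at matched time points. Of 55536 gene IDs, 13674 were tested, those with a mean level of at least 1 in either genotype. Levels are in TPM, a unit that divides a gene's reads by its transcript length and scales each library to the same total, so levels can be set side by side between genes.

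All organoids were grown from primary tissue of C57BL/6 mice. The mutant organoids carried the genotype label APCmin/-;BMAL1+/+ and the controls APC+/+;BMAL1+/+. Both received 0.1 µM dexamethasone, a synthetic glucocorticoid that sets the clocks of cultured cells to a common phase, for 1 h and then fresh medium, and were collected every 2 h from 24 to 46 h after it. The culture medium differed: Apc-min organoids were kept in EN and controls in ENR, names that in organoid work stand for EGF and Noggin without and with R-spondin. Genotype, medium, organoid line and library series moved together, so their parts in any difference cannot be told apart. The labels name 2 organoid lines per genotype but not which library came from which line, so each n counts libraries, and p-values measure the spread among them. Below, the lower-numbered and the higher-numbered library of each time point are treated as 2 library sets, with 9 and 12 Apc-min and 11 and 11 control libraries.

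Apc encodes a scaffold of the complex that marks β-catenin for destruction. When it fails, β-catenin accumulates and drives TCF/LEF target genes, among them many of the pathway's own inhibitors. R-spondin, which binds Lgr receptors and spares Frizzled receptors from degradation, is needed by normal intestinal organoids, whereas Apc-mutant organoids grow without it. In the normal crypt the same pathway maintains stem cells and Paneth cells, while Notch signalling, HNF4 and CDX factors guide the absorptive and secretory lineages.

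Uniquely mapped reads per library ran from 29.8 to 41.9 M in Apc-min and from 29.03 to 46.2 M in control organoids. Reads left unmapped as too short made up 0.82 to 1.96% of Apc-min and 2.93 to 15.8% of control libraries, ranges that did not overlap, and their part in the results below was not tested. An Apc-min library of 28 h was left out because it went against its label. It held 0.33 TPM of H19 and 22.8 TPM of Pdx1, whereas the other Apc-min libraries held 131 to 401.2 TPM and 0 to 0.06 TPM. Of the libraries labelled Apc-min and Bmal1-null, 21 held 0.17 to 1.51 TPM and 14.9 to 25.1 TPM of these genes, while that of 28 h numbered next to the first held 196.4 and 0.02 TPM, against its label in the opposite sense. Both libraries were left out on these values, so the levels of H19 and Pdx1 in the remaining ones are not independent of that choice. Whether the 2 were exchanged was not tested. With the first kept under its label, 1654 genes were higher and 1695 lower, against 1669 and 1695 without it.

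A total of 1669 genes (12.2% of those tested) were higher and 1695 (12.4%) lower in Apc-min organoids, at a limma adjusted p under 0.05 and a difference of 2-fold or more on log2(TPM + 1). These are the genes called higher or lower below. The adjusted p alone was passed by 11140 genes (81.5%), so the 2-fold limit decides most calls. In 2994 of the 3364 called genes no Apc-min library overlapped the controls. Over all genes tested 4208 (30.8%) did not overlap. The losses reached further than the gains: 165 genes were lower and 41 higher by 32-fold or more. Genes called lower carried a median of 18.9% of all TPM in control libraries (18 to 19.6%) and 2.99% in Apc-min libraries (2.55 to 3.62%). Genes called higher carried 2.93% in controls and 11.1% in Apc-min libraries. The median log2 difference of all genes was 0.17, and 0.02 after scaling by the median of ratios, which counts 1397 genes higher and 1909 lower, or 42.3% of calls higher in place of 49.6%. Differences are therefore best read against that small shift.

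**Figure D1:**
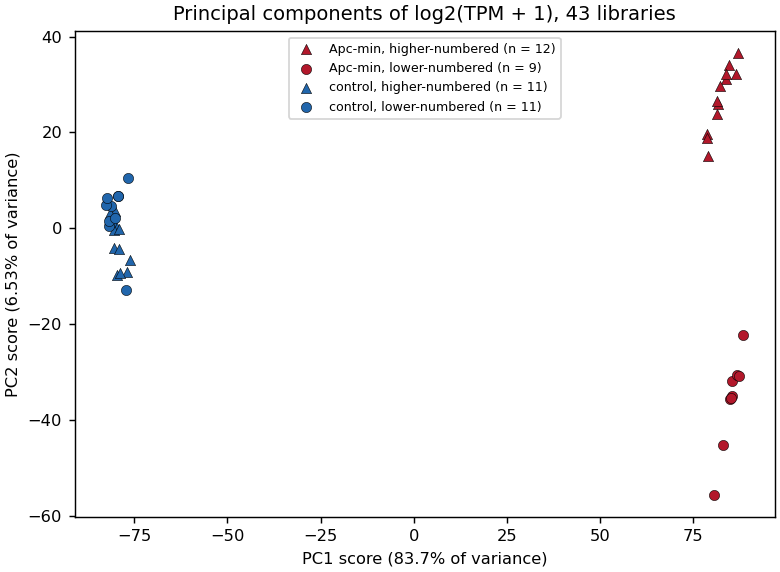
Each point is a library placed on the first 2 principal components of log2(TPM + 1), with the share of variance on each axis. Colour marks genotype and symbol the library set. The genotypes stand apart on the first component (83.7% of variance), and on the second (6.53%) the 2 Apc-min sets separate, at -55.5 to -22.3 and 15.2 to 36.5, while the control sets mix between -12.8 and 10.5.

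Principal components separated the genotypes first and the 2 Apc-min library sets second, as the plot of components shows. The Apc-min sets differed from each other by 2-fold or more in 762 genes and the control sets in 34. Differences within each set are given below for part of the genes whose sets differed. In 2649 of the 3364 called genes (19.4% of all tested) the call was also made in the same direction within each set alone.

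The targeted gene was measured first. Apc was present at 4.39 to 14.4 TPM in controls (median 9.64) and at 7.22 to 22.3 TPM in Apc-min libraries (median 14.8). The ranges overlapped, and the log2 difference of 0.63 ± 0.15 (SE, limma adjusted p = 0.00028) was below the 2-fold limit. It was 0.18 in the lower-numbered and 1.07 in the higher-numbered libraries. The Min allele is a nonsense mutation, so the amount of transcript does not check the label. Arntl, the gene for BMAL1, was at 11.3 to 20.7 TPM in controls and 7.2 to 17.3 TPM in Apc-min libraries and was not called (log2 difference -0.41). In Bmal1-null controls it averaged 8.67 ± 1.14 TPM (SD, n = 22).

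Genes of Wnt feedback and known direct Wnt targets were described first. Of 24 tested, 17 were higher, none was lower and 7 were not called, with a median log2 difference of 1.33 against 0.17 for all genes. Promoters of 14 of these genes were matched in RefSeq. For 2 genes a promoter held the TCF/LEF core CTTTGAT on either strand in the 250 bases before the start. Of all 32851 promoters, counted singly, 3.21% held it. The sites of the 2 genes are shown because TCF/LEF factors carry β-catenin to DNA. The core is in capitals, 5′ to 3′ on the gene's strand (RefSeq, GRCm38.p6). Sp5 lies at chr2:70474795-70474849 (+) and Tnfrsf19 at chr14:61038159-61038213 (-).
Sp5: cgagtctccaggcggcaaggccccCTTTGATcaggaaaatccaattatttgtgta
Tnfrsf19: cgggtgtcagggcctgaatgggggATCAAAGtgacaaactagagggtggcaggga
Sp5, a transcription factor and Wnt target, was at 5.68 to 11 TPM in controls (median 8.35) and at 27.9 to 44.4 TPM in Apc-min libraries (median 34.6), a log2 difference of 1.94 ± 0.06. Tnfrsf19, also called Troy and found in crypt base cells, was at 1.29 to 3.1 TPM in controls and at 11.4 to 34.5 TPM in Apc-min libraries (log2 difference 2.67 ± 0.12). For neither gene did the groups overlap. Counted by gene, a promoter held the core in 3.73% of genes called higher, 3.71% of those called lower and 2.59% of those not called. A gene can have several promoters, so these shares are not directly comparable with the share of single promoters.

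Inhibitors of the pathway were among the genes called higher. Notum, a secreted carboxylesterase that inactivates Wnt ligands, was at 0.21 to 0.78 TPM in controls (median 0.45) and at 56.3 to 376 TPM in Apc-min libraries (median 68.8). No library overlapped, and the log2 difference was 6.45 ± 0.27 (SE, limma adjusted p = 1.42e-21). It was 7.72 in the lower-numbered and 5.56 in the higher-numbered libraries. Nkd1, an intracellular inhibitor that binds Dishevelled, had medians of 1.17 and 37.9 TPM (log2 difference 4.76 ± 0.21, and 5.63 and 4.19 in the 2 sets). Dkk2, of a family that binds the LRP co-receptors, was at 0 to 0.01 TPM in controls and 3.13 to 6.91 TPM in Apc-min libraries (2.47 ± 0.06). Ccnd1, which encodes cyclin D1, was at 61 to 107.6 TPM in controls and 417.3 to 710.1 TPM in Apc-min libraries (2.70 ± 0.07). None of these genes overlapped between the groups. Axin2, a much used reporter of the pathway, was well expressed in controls already, at 72 to 143.5 TPM, and reached 157 to 296.1 TPM in Apc-min libraries. Its groups did not overlap, but its log2 difference of 0.97 ± 0.08 stayed just under the 2-fold limit, as did that of Myc at 0.99 ± 0.06. The ubiquitin ligase genes Rnf43 and Znrf3, whose products remove Frizzled receptors, were higher (log2 differences 1.14 and 1.38).

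The β-catenin destruction complex and its transcription partners did not follow: none of 17 members was called in either direction, with a median log2 difference of 0.25. Ctnnb1, the gene for β-catenin, had medians of 683.4 and 871.9 TPM (log2 difference 0.36). The ligands split. Of 19 genes of Wnt ligands, receptors and secretion, 6 were higher and 5 lower. Wnt3, a ligand that Paneth cells supply to stem cells, was at 11.1 to 16 TPM in controls (median 13.8) and 0 to 0.4 TPM in Apc-min libraries (median 0.1), a log2 difference of -3.73 ± 0.05. Wnt7b went the other way, from 0 to 0.04 TPM in controls to 35.8 to 70.2 TPM in Apc-min libraries (5.67 ± 0.07), and neither gene overlapped between the groups. Wnt10a, Wnt4, Wnt6, Wnt11 and Porcn, which encodes the enzyme that lipidates Wnt proteins, were also called higher. Of the receptors, Fzd5 was lower (medians 36.2 and 11 TPM, log2 difference -1.60), while Lgr4, a receptor for R-spondin, had medians of 55.3 and 52.5 TPM and was not called.

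**Figure D2:**
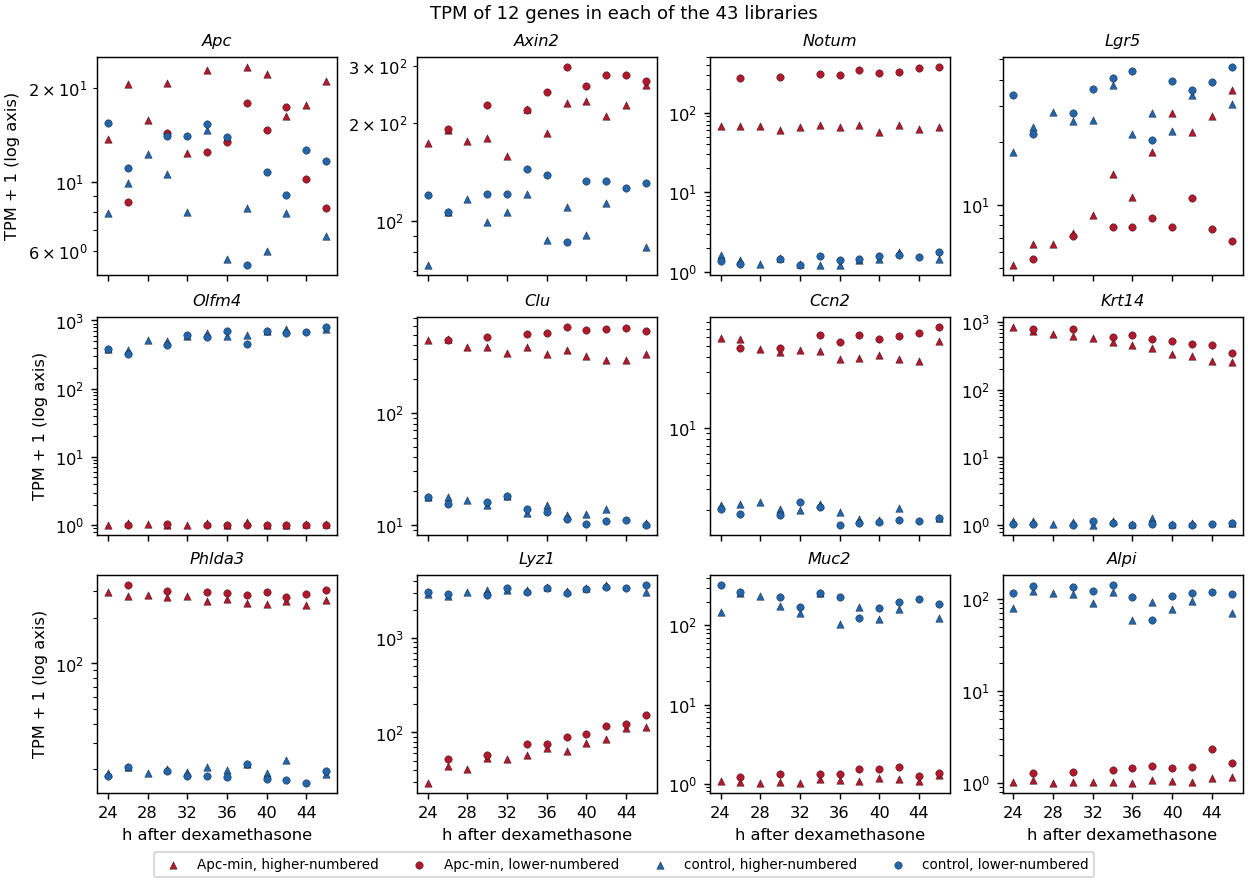
TPM + 1 on log axes in each of the 43 libraries against hours after dexamethasone for 12 genes, coloured by genotype, with the library set marked by symbol. Apc and Lgr5 overlap between genotypes, Notum and Clu lie above the controls in every Apc-min library, and Olfm4, Muc2 and Alpi lie below them.

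Stem cell genes did not move as a block. Of 22 tested, 6 were higher and 9 lower (median -0.46, and -0.97 and -0.11 in the lower-numbered and higher-numbered libraries). Lgr5, the R-spondin receptor that marks crypt base stem cells, was at 17 to 45 TPM in controls (median 28.4) and at 4.16 to 34.5 TPM in Apc-min libraries (median 6.91). The ranges overlapped through higher-numbered Apc-min libraries of 40 to 46 h, and the log2 difference was -1.57 ± 0.18 (SE, limma adjusted p = 1.06e-09), with -2.14 in the lower-numbered and -1.11 in the higher-numbered libraries. Olfm4, a secreted glycoprotein of crypt base cells, was at 321 to 805.1 TPM in controls and 0 to 0.1 TPM in Apc-min libraries, a log2 difference of -9.12 ± 0.07. Smoc2, a matrix protein of the Lgr5 signature, differed by -5.15 in the lower-numbered and -1.59 in the higher-numbered libraries. Ascl2, a transcription factor of stem cell fate under Wnt control, was higher instead, at 79.4 to 134.2 TPM against 31.7 to 63 TPM in controls (log2 difference 1.08), though in the lower-numbered libraries alone it was not called (0.74, against 1.33). Also higher were Tnfrsf19, Rnf43, Znrf3, Prom1 and Phgdh. In bulk RNA, fewer cells of a type and less RNA per cell cannot be told apart.

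Genes of the fetal and regenerating intestinal epithelium were higher in 12 of 22 and lower in 6, with a median log2 difference of 1.88. Clu, which encodes the chaperone clusterin, had medians of 12.7 and 448.1 TPM (4.97 ± 0.10). Ly6a, encoding Sca-1, had medians of 126.1 and 1890.4 TPM (3.91 ± 0.09), though reads of related Ly6 genes may be hard to assign. Anxa1, a phospholipid-binding protein, had medians of 66.9 and 1135.2 TPM (4.05 ± 0.07), and for none of these genes did the groups overlap. The members called lower included the EGF receptor ligand genes Ereg (-3.20) and Areg (-1.62), Tm4sf4 (-6.52) and Anxa10 (-4.21).

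YAP and TAZ are the coactivators held back by the Hippo kinases, and they act through TEAD factors. Of 20 YAP targets tested, 13 were higher and 1, F3, was lower (median log2 difference 2.25). The TEAD core GGAATG, on either strand, was present in a promoter of 8 of the 16 matched genes. Counted singly, 12.6% of all promoters held it. Counted by gene, the shares were 17.1% and 17.2% among genes called higher and lower, and 11.7% among those not called. The sites of 4 called members are shown with the core in capitals, 5′ to 3′ (RefSeq, GRCm38.p6): Ccn1 at chr3:145650059-145650112 (-), Ankrd1 at chr19:36120025-36120078 (-), Axl at chr7:25788937-25788983 (-) and Edn1 at chr13:42301245-42301298 (+).
Ccn1: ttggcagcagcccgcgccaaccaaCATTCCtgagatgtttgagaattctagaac
Ankrd1: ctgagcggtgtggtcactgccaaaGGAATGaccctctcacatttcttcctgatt
Axl: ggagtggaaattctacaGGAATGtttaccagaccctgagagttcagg
Edn1: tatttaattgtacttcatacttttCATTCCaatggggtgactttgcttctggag
These 4 genes, for a matricellular protein, a nuclear ankyrin repeat protein, a receptor kinase and a vasoactive peptide, had log2 differences of 2.49, 2.01, 1.12 and 2.26, though Axl was not called in the lower-numbered libraries alone (0.80, against 1.33). Ccn2, for another matricellular protein, was at 0.48 to 1.35 TPM in controls (median 0.865) and at 36.4 to 71.9 TPM in Apc-min libraries (median 47.4). Its log2 difference was 4.77 ± 0.08 (SE, limma adjusted p = 5.56e-34), with no overlap. Myof, for a membrane repair protein, had medians of 5.75 and 113.4 TPM (4.12 ± 0.09). Ajuba, for a LIM protein that binds LATS kinases, had medians of 8.64 and 83.4 TPM (3.17 ± 0.06). Of 19 components of the pathway itself, 6 were higher and 1, Tead3, was lower (median 0.77). Wwtr1, which encodes TAZ, was at 0.03 to 0.16 TPM in controls and at 12 to 18.2 TPM in Apc-min libraries (3.89 ± 0.04), without overlap. Tead2 and Tead4 were higher (1.99 and 2.25), and Yap1, with medians of 50.3 and 81.9 TPM, stayed under 2-fold (0.77).

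Of 23 integrin, laminin and matrix genes 14 were higher and none was lower (median log2 difference 1.23). The basement membrane collagen genes Col4a1 and Col4a2 had medians of 0.385 and 0.36 TPM in controls and 54.9 and 39.9 TPM in Apc-min libraries (5.25 ± 0.07 and 4.85 ± 0.08). Lama5, for a laminin chain of the same membrane, had medians of 7.96 and 152.3 TPM (4.17 ± 0.11). Of 18 genes of the BMP and TGF-β pathways 9 were higher and 1, Bmp7, was lower (median 0.87). Id1 and Id3, for transcriptional inhibitors that BMP signals induce, had medians of 71.2 and 36.2 TPM in controls and 514.5 and 252.1 TPM in Apc-min libraries (2.90 ± 0.12 and 3.04 ± 0.16). Bmp4 was at 0 to 0.29 TPM in controls and 3.47 to 19.5 TPM in Apc-min libraries (3.01 ± 0.19). No group of libraries overlapped for these 6 genes.

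Many genes of stratified and gastric epithelium were high in Apc-min organoids. Of 16 squamous keratins and related genes 9 were higher and 2 lower (median log2 difference 1.52), and of 9 gastric genes 8 were higher and 1 lower (median 2.05). The lists held 21 and 16 genes, and those not tested averaged under 1 TPM in both genotypes. Members that low in controls, such as Krt14, Lipf and Gkn1, entered the test only through their level in Apc-min organoids. The counts of genes called higher are therefore not independent of this filter. Krt14, the basal keratin of stratified epithelia, was at 0 to 0.26 TPM in controls and 258.9 to 849.7 TPM in Apc-min libraries, with a log2 difference of 8.92. Krt4, a keratin of oesophagus and other mucosal surfaces, was at 1.29 to 4.11 TPM in controls and 565.1 to 800.7 TPM in Apc-min libraries (7.57 ± 0.08). Krt6a, a keratin of injured epidermis, had medians of 0.76 and 210.6 TPM (6.66 ± 0.10). Krt5, the usual partner of Krt14, stayed at 2.33 to 6.47 TPM in Apc-min libraries (2.24 ± 0.07). The trefoil peptide genes Tff1 and Tff2 of gastric mucus had medians of 0.275 and 0.205 TPM in controls and 18.2 and 30.4 TPM in Apc-min libraries. For Tff2 the difference was 6.07 in the lower-numbered and 4.10 in the higher-numbered libraries. Lipf, gastric lipase, was at 0 to 0.06 TPM in controls and spread from 61.1 to 1054 TPM in Apc-min libraries (9.71 and 6.35 in the 2 sets). Gkn1, for a gastric secreted protein, is listed at 0 in every control library and at 1.51 to 6.63 TPM in the Apc-min libraries. The gastric gene called lower was Anxa10.

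The differentiated lineages of the intestine were lower nearly throughout. Of 46 enterocyte genes 44 were lower, with a median log2 difference of -5.27, and Ezr and Klf4 were not called. Apoa1, an apolipoprotein of lipid export, was at 3145.1 to 5204 TPM in controls and 0 to 1.11 TPM in Apc-min libraries (-11.61 ± 0.06, limma adjusted p = 3.18e-49). Sis, the sucrase-isomaltase of the brush border, was at 513.1 to 1026.4 TPM in controls and 0 to 0.08 TPM in Apc-min libraries (-9.60). Neither gene overlapped between the groups. Alpi, intestinal alkaline phosphatase, was at 58.1 to 140.6 TPM in controls and 0 to 1.33 TPM in Apc-min libraries (-6.39 ± 0.11). Vil1, the actin bundler villin, kept more of its level, with medians of 695.1 and 179.5 TPM (-1.96). Krt20, a keratin of surface cells, differed by -1.84 in the lower-numbered and -4.82 in the higher-numbered libraries. The HNF4 motif CAAAGTCCA was found on either strand in the promoters of 2 of 40 matched members, Alpi at chr1:87101607-87101649 (-) and Treh at chr9:44673138-44673194 (+), and in 0.384% of all promoters. The capitals mark the motif, 5′ to 3′ (RefSeq, GRCm38.p6).
Alpi: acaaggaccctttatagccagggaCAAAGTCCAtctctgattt
Treh: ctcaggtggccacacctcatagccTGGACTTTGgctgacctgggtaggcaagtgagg
Counted by gene, a promoter held this motif in 1.49% of genes called lower, 0.331% of those called higher and 0.364% of those not called. Hnf4a, a nuclear receptor of enterocyte genes, was lower with medians of 476.9 and 76.4 TPM (-2.55), and its paralogue Hnf4g with medians of 62.9 and 1.02 TPM (-4.83).

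**Figure D3:**
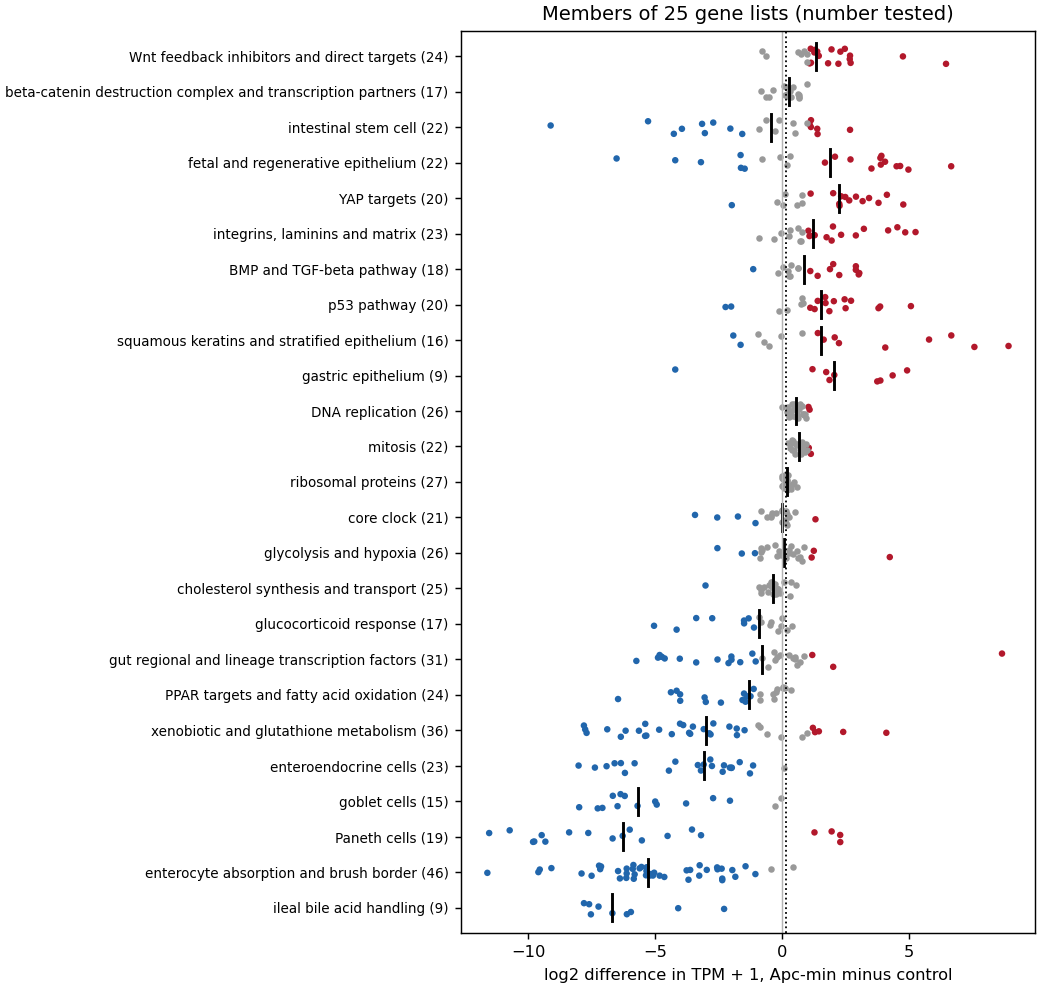
Each point is a tested gene of 1 of 25 lists, placed by its log2 difference in TPM + 1 (Apc-min minus control). Red and blue points were called higher and lower, grey points were not called, black bars are list medians and the dotted line is the median of all genes tested (0.17). List medians run from 2.25 for YAP targets to -6.69 for ileal bile acid genes.

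All 9 ileal bile acid genes were lower (median log2 difference -6.69). Slc51a, a subunit of the basolateral bile acid exporter, was at 176.6 to 358.1 TPM in controls and 0 to 0.12 TPM in Apc-min libraries (-7.81 ± 0.07). Fabp6, the ileal bile acid binding protein, had medians of 414.2 and 1.38 TPM (-7.53 ± 0.13). The secretory lineages followed. Of 23 enteroendocrine genes 22 were lower (median -3.09). Chga, a granin of hormone granules, was at 67.7 to 99.1 TPM in controls and 0 to 0.37 TPM in Apc-min libraries (-6.19 ± 0.05), and Gcg, the glucagon-like peptide precursor, at 189.8 to 356.7 and 0 to 0.16 TPM (-8.02 ± 0.06). Of 15 goblet cell genes 13 were lower (median -5.70), and Muc2, the main intestinal mucin, was at 103.8 to 324 TPM in controls and 0.02 to 0.64 TPM in Apc-min libraries (-7.27 ± 0.11). Atoh1, a master factor of secretory fate, was at 28.4 to 41.9 and 0 to 0.48 TPM. None of these genes overlapped between the groups. Of 16 Notch pathway and fate genes 7 were lower and 1, the ligand gene Jag2, was higher (median -0.11). The ligand genes Dll1 and Dll4 of secretory precursors were lower (-3.60 and -2.59), while Hes1, the Notch target, had medians of 124.9 and 121.7 TPM and was not called.

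Paneth cell genes divided. Of 19 tested, 15 were lower and 4 higher (median log2 difference -6.28). Among the α-defensins, antimicrobial peptides of the granules, Defa24 was at 6779.7 to 14203.9 TPM in controls and 0.68 to 7.38 TPM in Apc-min libraries (-11.54 ± 0.18, and -10.68 and -12.20 in the 2 sets). Reads of the near-identical α-defensin genes could be split between copies, so their single values are uncertain. Lyz1, the Paneth lysozyme, was at 2759.4 to 3643.1 TPM in controls and 28.1 to 151.1 TPM in Apc-min libraries (-5.53 ± 0.10), so some transcript remained. Mmp7, the protease that processes defensins, was higher instead, at 1137 to 3404.4 TPM against 378.9 to 598 TPM in controls (1.95), as were Lyz2, Pla2g2a and Mptx2. Tuft cell genes split likewise, with 7 of 11 lower (median -1.23), among them the kinase gene Dclk1 and the channel gene Trpm5, and 2, Avil and Ptgs1, higher. Avil, for the actin-binding protein advillin, was at 26 to 130.5 TPM in Apc-min libraries and 1.69 to 3.41 TPM in controls (5.16 and 3.13 in the 2 sets).

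Of 31 regional and lineage factors 15 were lower and 3 higher (median log2 difference -0.78). Cdx1 was at 409.3 to 517.9 TPM in controls and 5.33 to 10.1 TPM in Apc-min libraries (-5.74 ± 0.06). Cdx2, a master factor of intestinal identity, was at 232.9 to 279.3 and 29.3 to 99.5 TPM (-2.11 ± 0.15), and neither gene overlapped. Hoxb6, Hoxb7, Hoxb8 and Hoxb9, positional genes of the trunk, were lower (-4.82, -4.03, -4.63 and -4.74). Gata6 was lower (-3.39) and Gata4, a related factor of the proximal gut, was not called (0.86). The factors called higher were Sox17, an endoderm factor, at 265.6 to 705.8 TPM against 0 to 0.14 TPM in controls (8.66 ± 0.12), Id2 and Prdm1. Of 20 simple epithelial keratin and adhesion genes 3 were higher and 8 lower (median -0.58). Epcam, the epithelial adhesion molecule, remained abundant though lower, with medians of 1697.3 and 644.7 TPM (-1.38). Cdh1, E-cadherin, had medians of 339.4 and 337.5 TPM and was not called, and Krt18 was higher, with medians of 1059.1 and 2350.1 TPM (1.14).

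Markers of cells other than epithelium were checked in both groups. The 10 fibroblast genes summed to 0.33 to 0.98 TPM in Apc-min and 1.85 to 3.31 TPM in control libraries, with Lum at 0 in all of them. The 11 immune genes summed to 13.6 to 43 TPM in Apc-min and 3.06 to 6.02 TPM in control libraries, with Cd8a at 0 throughout. Of the 3 immune genes tested, Lyz2 and Cd68 were called higher and 1 was called lower. Lyz2 is also among the Paneth genes above. The 8 endothelial genes summed to 4.4 to 34.2 TPM against 0.89 to 2.34 TPM in controls, and the cadherin gene Cdh5 was at 1.79 to 19.6 TPM against 0 to 0.01 TPM. The 6 smooth muscle genes summed to 0.65 to 5.86 TPM against 0 to 0.62 TPM, and the 9 genes of neurons and glia to 1.27 to 2.65 TPM against 5.5 to 9.58 TPM. The part of such cells in the differences above was not tested.

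Of 20 genes of the p53 pathway 13 were higher and 2 lower (median log2 difference 1.55). Phlda3, a p53-induced inhibitor of AKT, was at 15.2 to 21.9 TPM in controls (median 18.2) and 242.9 to 329.1 TPM in Apc-min libraries (median 278.9), a log2 difference of 3.86 ± 0.04 without overlap. Eda2r, a receptor of the TNF family, had medians of 1.28 and 30.5 TPM (3.79 ± 0.11), Ccng1, cyclin G1, of 58.5 and 382.9 TPM (2.71 ± 0.07), and Mdm2, the ligase that degrades p53, of 35.9 and 129.4 TPM (1.86). Cdkn1a, which encodes p21 and is a classic target, overlapped, at 359.9 to 502 TPM in controls and 288.3 to 605.5 TPM in Apc-min libraries (-0.12 ± 0.09). Its sign differed between the sets (0.36 and -0.47). Cdkn2a, the locus of p16 and ARF, was at 0.7 to 2.7 TPM in controls and 57.6 to 168.9 TPM in Apc-min libraries (5.07 ± 0.15), whereas its neighbour Cdkn2b was lower (-2.23).

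Counts of growth genes are read beside the 12.2% of all genes called higher and the 12.4% called lower. Of 26 DNA replication genes 2 were higher, of 22 mitosis genes 2 and of 20 ribosome biogenesis genes 2, and none was lower. Their median log2 differences of 0.55, 0.65 and 0.65 joined unlike sets: DNA replication genes had a median of 0.03 in the lower-numbered and 1.06 in the higher-numbered libraries, mitosis genes 0.21 and 1.01, and ribosome biogenesis genes 0.19 and 1.01. Mki67, the proliferation marker, was at 18.2 to 47 TPM in controls and 11.8 to 67 TPM in Apc-min libraries, with log2 differences of -0.27 and 0.94 in the sets. None of 27 ribosomal protein genes and none of 7 mitochondrially encoded genes was called.

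**Figure D4:**
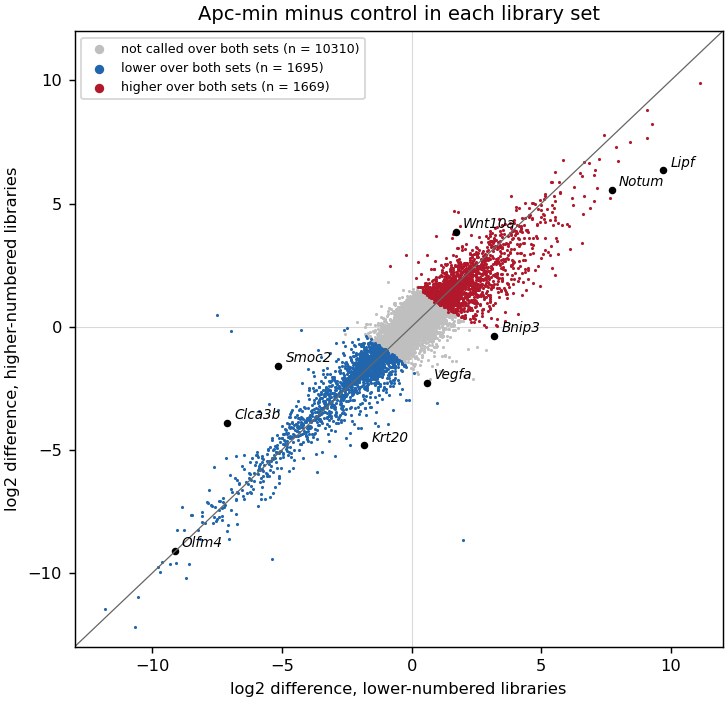
Each point is a gene, placed by its log2 difference (Apc-min minus control) in the lower-numbered libraries on the horizontal axis and in the higher-numbered libraries on the vertical axis, with the diagonal of equal differences. Olfm4 (-9.15 and -9.10) lies along it, while Bnip3, Vegfa, Krt20, Smoc2 and Clca3b lie off it.

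Many metabolic genes of the enterocyte were lower. Of 36 xenobiotic and glutathione genes 25 were lower and 5 higher (median log2 difference -2.98), of 24 PPAR targets and fatty acid oxidation genes 14 were lower (median -1.32), and of 19 genes of fructose use, ChREBP and gluconeogenesis 11 were lower and 1 higher (median -1.44). Mlxipl, which encodes the sugar sensor ChREBP, had medians of 162.9 and 2.52 TPM (-5.25 ± 0.13). By contrast 24 of 25 cholesterol genes were not called, and Soat2, which esterifies cholesterol, was lower (-3.03). Of 17 glucocorticoid-responsive genes 8 were lower and none higher (median -0.91). The metallothionein genes Mt1 and Mt2 had medians of 6128 and 4680.5 TPM in controls and 907.1 and 443.9 TPM in Apc-min libraries, and Tsc22d3, known as GILZ, differed by -0.86 and -1.97 in the 2 sets. Of 17 retinoid genes 6 were higher and 6 lower. Rbp2, the binding protein of absorptive cells, was lower (-6.14), and Stra6, a receptor for retinol-binding protein, was higher, at 168 to 713.2 TPM against 0 to 0.09 TPM in controls (8.23 ± 0.17, and 9.08 and 7.65 in the 2 sets).

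Of 24 interferon and antigen presentation genes 5 were higher and 7 lower (median log2 difference -0.24). Ifitm1, for an antiviral membrane protein, was at 0 to 0.41 TPM in controls and 762 to 3263.2 TPM in Apc-min libraries (10.41), and the related Ifitm3 had medians of 28.8 and 3073.9 TPM (6.70). Reads of these related genes may also be hard to assign. Irf7, a factor that amplifies interferon, and B2m, the light chain of class I molecules, were lower (-2.75 and -1.94). Of 14 imprinted and growth factor binding genes 8 were higher and 3 lower (median 1.09). H19, a maternally expressed noncoding RNA, was at 0 to 0.41 TPM in controls and 131 to 401.2 TPM in Apc-min libraries (7.53 ± 0.09). Igf2, the growth factor gene beside it, was at 0.47 to 1.66 and 9.29 to 35.4 TPM (3.50). Neither overlapped between the groups. For H19 this depends on the left-out Apc-min library, which held 0.33 TPM, within the control range, and was left out partly on that value.

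The difference between the genotypes also changed over the hours after dexamethasone. It is signed (Apc-min minus control), so a rise can also bring a gene that is low in Apc-min organoids closer to controls, as for Lyz1. In 1972 genes (14.4%) the difference changed linearly with time, rising in 1498 (11%) and falling in 474 (3.47%), at a limma adjusted p under 0.05. Lower-numbered Apc-min libraries are missing at 24, 28 and 32 h, so the make-up of the Apc-min group changes along the series. With library set as a block within genotype 4873 genes (35.6%) passed, all 1972 among them. Within the lower-numbered libraries alone 4 passed and within the higher-numbered 2465. Of the 1972 genes 1900 had slopes of the same sign in both Apc-min sets. Leaving out control replicate 24, 1 or 6 gave 862, 1131 and 1011 genes, and leaving out Apc-min replicate 6 or 2 gave 1019 and 1311.

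Glycolysis and hypoxia genes formed the list that did this most: the difference rose with time in 24 of 26, and 6 of the 26 were called for their mean level, 3 in each direction, where 24.6% of all genes were called. Median slopes were 0.0026 log2 units per h in controls and 0.0607 in Apc-min libraries, with 0.0292 in the lower-numbered and 0.064 in the higher-numbered set, and 25 of 26 genes sloped upward in each Apc-min set. In controls 18 of the 26 sloped upward. Over all 13674 genes 8285 sloped upward in the lower-numbered and 8983 in the higher-numbered Apc-min set, and 4609 in controls. Slc16a3, the lactate exporter, averaged 90.1 ± 22 TPM (SD) in controls from 24 to 34 h and 90.8 ± 17.1 TPM from 36 to 46 h. In Apc-min libraries it averaged 47.3 ± 50.3 and 115.1 ± 41.8 TPM, with slopes of 0.03 log2 units per h in the lower-numbered and 0.28 in the higher-numbered set. Pgk1, a glycolytic kinase, and Ldha, lactate dehydrogenase, rose in the same way, with slopes of the difference of 0.05 ± 0.02 and 0.04 ± 0.01 per h. For Bnip3, a hypoxia-induced mitophagy receptor, the mean difference changed sign between sets (3.18 in the lower-numbered and -0.38 in the higher-numbered libraries), and for Vegfa, the angiogenic growth factor, too (0.59 and -2.29). The 24 genes became 25 with the block, 16 under median-of-ratios scaling, 19 without control replicate 24, none in the lower-numbered libraries alone and 24 in the higher-numbered.

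**Figure D5:**
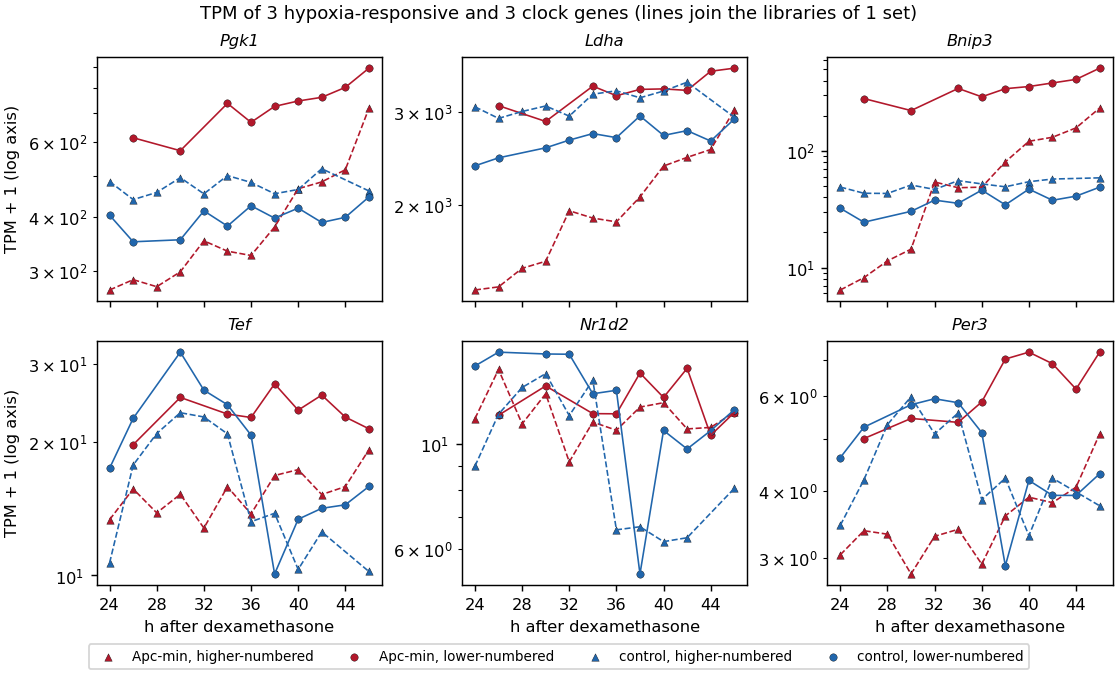
TPM + 1 on log axes against hours after dexamethasone for Pgk1, Ldha and Bnip3 (top) and the clock genes Tef, Nr1d2 and Per3 (bottom), with lines joining the libraries of a set. The top genes rise in both Apc-min sets from different levels and are nearly level in controls. The bottom genes have fitted peaks at 30.4, 28.6 and 30.5 h in controls and at 40.3, 43.1 and 41.9 h in Apc-min libraries. Tef and Nr1d2 have smaller amplitudes there, and that of Nr1d2 (0.02 log2 units) is too small to place a peak.

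The clock genes were compared with a cosine of 24 h, and since a single cycle was sampled, a cosine cannot be told from another change that happens once. In 815 genes (5.96%) the fitted cosines differed between genotypes (limma adjusted p under 0.05), and 7 of 21 core clock genes were among them, including Tef, Nr1d2, Per1, Per3, Cry2 and Ciart. In the linear time test 10 of the 21 passed, against 14.4% of all genes, though none in the lower-numbered libraries alone. Median slopes of the 21 were -0.0119 log2 units per h in controls and 0.0225 in Apc-min libraries. Their median fitted amplitudes were alike, at 0.194 and 0.198 log2 units. Tef, an output factor of the clock, had a fitted amplitude of 0.57 log2 units with a peak at 30.4 h in controls and 0.16 with a peak at 40.3 h in Apc-min libraries (limma adjusted p = 0.0181). Nr1d2, the repressor REV-ERBβ, had amplitudes of 0.51 and 0.02. Per3, a member of the Period repressors, had amplitudes of 0.32 and 0.29 with peaks at 30.5 and 41.9 h. The fitted amplitude was larger in Apc-min libraries for Per1 (0.19 and 0.29) and Ciart (0.19 and 0.45), as in 602 of the 815 genes. Over the 21 clock genes the median fitted peak was 30.5 h in controls and 40.8 h in Apc-min libraries. Over all genes tested it was 29.7 and 39 h, so such a shift was not limited to clock genes. Fitted peaks repeat every 24 h, so a later peak cannot be told from an earlier one. This test moved with single libraries: without 1 library at a time it gave 50 genes (without control replicate 18) to 1932 (without Apc-min replicate 7), with 26 of 43 omissions moving it by over 1.5 times. With the left-out library kept 1684 genes passed, under median-of-ratios scaling 486, with the block 5424 (39.7%), and in the lower-numbered and higher-numbered libraries alone 53 and 3. Of the 21 clock genes 16 passed with the block, 10 with the left-out library, 5 under median-of-ratios scaling, 3 without control replicate 18 and 1 in each set alone. For mean level Npas2, Per2 and Nfil3 were among those lower, and Csnk1e, a clock kinase gene, was higher. Npas2, the partner that can replace CLOCK, was at 21.2 to 43.3 TPM in controls and 1.43 to 18.2 TPM in Apc-min libraries (-2.56 ± 0.21).

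The same Apc contrast exists in Bmal1-null organoids (21 APCmin/-;BMAL1-/- and 22 APC+/+;BMAL1-/- libraries), which share neither libraries nor controls with the present one. The doubly mutant library of 28 h described above was left out of it. In both contrasts the Apc-min libraries have lower library numbers than the Apc wild-type libraries, so genotype and library series move together in each. Reads left unmapped as too short had medians of 1.1% in doubly mutant and 5.45% in Bmal1-null libraries. The Bmal1-null contrast is therefore not free of the limits of the present one. Of the 3364 genes called with Bmal1 intact, 2520 (74.9%) were called in the same direction without it and 11 in the opposite one. The 2520 are 70.5% of the 3572 called without Bmal1. The difference itself differed, by an interaction of Apc and Bmal1 of 2-fold or more at a limma adjusted p under 0.05, in 1032 genes (7.44%), in 742 (5.35%) towards higher and 290 (2.09%) towards lower values with Bmal1 intact, among 13864 tested. Genotype and organoid line cannot be told apart here. With both left-out libraries kept under their labels 841 genes passed, with the 8 set means as units 363, and with a pseudocount of 0.1 there were 1713.

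Several Wnt inhibitors were part of that difference. Of 25 genes of Wnt feedback and direct targets 10 had an interaction called towards higher values with Bmal1 intact, against 5.35% of all genes. None was called towards lower values. The median Apc difference of the list was 1.295 log2 units with Bmal1 intact and 0.514 without it. The mean of Notum was 174.6 TPM in Apc-min organoids and 8.3 TPM in doubly mutant ones, with log2 differences from their own controls of 6.48 and 2.64 (interaction 3.84 ± 0.27, limma adjusted p = 2.18e-21). The means of Nkd1 were 70.2 and 7.31 TPM (interaction 2.77 ± 0.21). Axin2 differed by 0.98 and 0.15 from its controls, an interaction of 0.83 that passed the adjusted p alone (8.5e-09) but not the 2-fold limit. Lgr5 was lower in both, by -1.58 and -3.08 (interaction 1.503, limma adjusted p = 1.27e-08). Much of the rest was shared. Wnt7b differed by 5.67 and 5.26, Phlda3 by 3.86 and 3.60, Ccnd1 by 2.70 and 2.56 and Olfm4 by -9.12 and -8.94, and none of these interactions reached 2-fold, though those of Wnt7b and Phlda3 passed the adjusted p alone (2.11e-05 and 5.06e-06).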

How the data were processed

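Libraries came from total RNA (Qiagen RNeasy, NEBNext Ultra II Directional kit) read as single 101-base reads in 2 lanes, per the labels' protocols. The authors deposited a TPM table for each genotype; the submitters' processing notes name STAR 2.5, RSEM 1.3.0 and GRCm38. Counts of mapped reads and percent values of the aligner log were deposited by the authors, and the log lists libraries not used, which are not analysed here. Of 55536 gene IDs 55450 were named from GENCODE M21. RSEM shares reads between near-identical genes, which can blur paralogues.

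Genes averaging at least 1 TPM in either genotype were tested in limma 3.58.1 (R 4.3.3, trend) on log2(TPM + 1), with time point as a factor; the added 1 understates differences of low genes. Adjusted p is Benjamini-Hochberg over all genes tested. Called means adjusted p under 0.05 and 2-fold; errors are SE unless SD is given. The linear-time, 24 h cosine and Apc by Bmal1 interaction tests used the same scale, and each was checked on simulated data. The simulation drew independent noise for each library from the spread of control libraries, without library sets. It therefore cannot check error rates where the sets differ. Lists are described by counts and medians without a set test. Named genes are Apc and Arntl, the 15 largest differences each way with 5 TPM or more and the same sign at all 12 times, up to 6 members per list plus a few fixed ones, and 10 per time or interaction test, apart from a few genes not reported here; other list members named with a value were chosen after their values were seen. The members and lists were chosen with earlier results of these data known. The library sets are lower- and higher-numbered libraries of a time point; the 2 Apc-min sets separate on a principal component, which is where the block of set within genotype comes from, and labels do not say that the numbers mark lines. Alternatives were scaling, pseudocount, filter, block, set means, the early and the late times alone and leaving out libraries.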

Additional observations from a re-analysis of the deposited data

Results flagged for a closer look

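These 9 genes were among the 10 with the smallest p in the limma interaction, where the Apc difference with Bmal1 intact was set against that in Bmal1-null organoids. Means ± SD are over 22 control, 21 Apc-min, 22 Bmal1-null and 21 doubly mutant (Apc-min and Bmal1-null) libraries. A 28 h library of each Apc-min kind was left out because its H19 and Pdx1 levels went against its label, so the values of these genes are not independent of that choice. With both kept under their labels the interactions were 6.43 for H19 and -4.031 for Pdx1. All 9 also passed with both kept, and with the 8 set means as units. The left-out Apc-min library held 67.1 TPM of Pitx1, 6.41 TPM of Rdx and 30.1 TPM of Anxa10. The other Apc-min libraries held 419.4 to 718.8, 69 to 114.2 and 0.1 to 0.75 TPM, so the values of these genes also depend on the omission. Genotype and organoid line cannot be told apart in any of the 9 genes.

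In 6 genes the Apc difference was higher with Bmal1 intact. H19, an imprinted noncoding RNA, averaged 0.127 ± 0.101 TPM in controls, 219.7 ± 69.1 in Apc-min, 0.115 ± 0.118 in Bmal1-null and 0.55 ± 0.308 in doubly mutant organoids, an interaction of 7.09 log2 units. Rdx, the cytoskeletal linker radixin, averaged 87.7 ± 11.9 TPM in Apc-min organoids and 6.05 ± 1.2 TPM in doubly mutant ones (3.63). Pitx1, a hindlimb factor, averaged 540.1 ± 113.9 and 62.1 ± 3.35 TPM (3.05), with both controls near 28 TPM. Ppp2r2b, a phosphatase subunit, averaged 11.2 ± 1.44 and 0.693 ± 0.184 TPM (2.85). Ust, a sulfotransferase, averaged 7.74 ± 1.2 and 0.263 ± 0.11 TPM (2.78). Dkk2, the Wnt inhibitor, averaged 4.67 ± 1.02 and 0.0348 ± 0.0344 TPM (2.43). In control and Bmal1-null organoids Rdx averaged 0.0805 and 0.0532 TPM and Ppp2r2b 0.00545 and 0.0132 TPM. In the same organoids Ust averaged 0.00273 and 0 TPM and Dkk2 0.00182 and 0.00136 TPM.

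In 3 genes the Apc difference was lower with Bmal1 intact. Pdx1, the factor of pancreas and duodenum, averaged 0.0133 ± 0.0201 TPM in Apc-min organoids and 21.7 ± 2.22 TPM in doubly mutant ones (-4.445), and its neighbouring noncoding RNA Plut 0.0795 ± 0.0947 and 7.27 ± 1.13 TPM (-2.96). Anxa10 averaged 0.348 ± 0.138 and 31.1 ± 13.5 TPM (-4.84), against 25 ± 5.44 TPM in controls and 18.4 ± 4.25 TPM in Bmal1-null organoids. In control and Bmal1-null organoids Pdx1 averaged 0.42 and 0.448 TPM and Plut 0.227 and 0.206 TPM.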

How the results depend on the processing

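For mean level, 16 other settings gave 1217 to 2030 genes higher and 1314 to 1998 lower, and leaving out each library in turn 1644 to 1692 and 1674 to 1727, all within 1.5 times the reported 1669 and 1695. With library set as a block it was 1683 and 1676, with the set nested within genotype as a replicate block 1672 and 1684, and with set means as units (2 against 2) 1559 and 1624. Of 322 named genes the block nested within genotype took the call from 5 and set means from 14. Among named genes called for mean level, values were reversed only for Vegfa and Bnip3. Vegfa was reversed in the lower-numbered libraries (0.59, against -1.07) and Bnip3 in the higher-numbered (-0.375, against 1.16). Of all genes called for mean level, 4 called higher and 5 called lower had the opposite sign in 1 library set. The linear time count of 1972 was 4873 with the replicate block, 4 in the lower-numbered libraries and 862 to 2875 when 1 library was left out. The cosine count of 815 was 5424 with the replicate block, 1684 with the left-out library kept, 486 under median-of-ratios scaling, 53 and 3 in the lower-numbered and higher-numbered libraries, and 50 to 1932 when 1 library was left out. The interaction count of 1032 was 1713 with a pseudocount of 0.1, 363 with set means and 1120 with the replicate block. The causes were not tested. The set numbers are no stated pairing of the genotypes, and counts from set means rest on 4 or 8 units. Low genes, and transcripts listed at 0, limit the folds.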

Other observations

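Genes with the smallest p in the linear time test included secretory and defence genes that were low in Apc-min organoids throughout. Lyz1 averaged 50.5 TPM from 24 to 34 h and 96.9 TPM from 36 to 46 h in Apc-min libraries, while controls held 3075.4 and 3344.2 TPM, and its Apc-min slopes were 0.08 log2 units per h in both sets. Nlrp6, a sensor of mucosal defence, averaged 1.28 and 3.65 TPM in Apc-min libraries against 220.7 and 193.1 TPM in controls. Igfbp1, an IGF binding protein, averaged 3.97 and 7.81 TPM and was near 0 in controls. Ly6a changed on the control side: 168.1 and 102.8 TPM in controls, 1882.4 and 1908.3 TPM in Apc-min libraries.

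Among other groups, 5 of 12 heat shock genes were higher and none lower, with the small chaperone Hspb1 at 0.06 to 0.6 TPM in controls and 39.6 to 103.8 TPM in Apc-min libraries (log2 difference 5.61 ± 0.12). Cryab, a related small chaperone, was at 0.22 to 1.07 TPM in controls and 235.7 to 550.0 TPM in Apc-min libraries (7.90 ± 0.11). Of 21 genes of amino acid transport, one-carbon and polyamine metabolism 6 were higher and none lower, where 12.2% of all genes were higher and 12.4% lower. Only 2 of the 21 were called higher within each library set too, against 9.01% of all genes. The Y-linked genes Ddx3y, Eif2s3y, Kdm5d and Uty were present in every library of both genotypes and none was called.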
